A study of Mus musculus with 16 samples.

Results

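The genes described here encode the proteins of the cytosolic ribosome. Members were taken by symbol, as every row of the gene tables named Rpl or Rps with a number and at most a letter a, x or y, plus Rplp0, Rplp1, Rplp2 and Rpsa, which gave 76 of 22440 genes. Of these, 45 encode proteins of the large subunit and 31 proteins of the small subunit, and they lie on 19 chromosomes.

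The series examined DNA breaks and gene expression in dissociated cortical neurons of Swiss-Webster mouse embryos at embryonic day 16, grown in culture with no transgene or deletion named. RNA-seq libraries make up 4 of the 16 samples, and the 12 chromatin samples were not analysed here. The library titled CTRL is called the etoposide control here and is set beside a library of neurons given etoposide, at 5 µM per the labels. The library titled CTRL2 is called the NMDA control and is set beside a library of neurons given NMDA. For most experiments the labels give an NMDA dose of 50 µM, an exposure of 10 min and a recovery of 10 min. Etoposide holds type II topoisomerases on cut DNA, and NMDA opens the glutamate receptors named after it. Neither the length of the etoposide treatment, the days in culture nor the number of embryos pooled is stated, and the titles of both controls name no treatment. With 1 library a group there are no replicates, no test was run and no p-value is given.

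As background, a ribosome joins a small subunit, which holds the messenger RNA and reads its codons, to a large subunit, which makes the peptide bond and passes the growing chain out through a tunnel. Its proteins are needed in near-equal amounts, and their messenger RNAs are short, abundant and stable, and mostly start with a run of pyrimidines (a 5′ TOP tract) through which mTOR signalling and LARP1 control their translation. Most of these genes have left intronless copies (processed pseudogenes) across the mammalian genome, and many carry small nucleolar RNAs, guides of ribosomal RNA modification, in their introns.

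Values are FPKM, fragments per kilobase of transcript scaled to the library's fragment total. From the smallest steps between the values of single-exon genes, that total was near 13.7 M (etoposide control) and 11.96 M (etoposide) fragments in the etoposide pair, and near 20 M (NMDA control) and 18.2 M (NMDA) in the NMDA pair. FPKM of at least 1 was listed for 9836 to 12886 genes a library, and Mir5109, a microRNA locus, held 51.9% to 76.5% of each library's FPKM sum. Values below those of 0.5 fragments were listed for 12 of 147 single-exon genes above 0 in the etoposide control and 4 of 156 with etoposide, and for 0 of 145 and 0 of 128 in the NMDA pair. All 9 pan-neuronal markers were at FPKM of at least 1 in each library. Summed markers of 8 astrocyte genes were at 82.7 FPKM before and 43.5 after etoposide, and at 659 and 622 FPKM in the NMDA pair, and those of 9 progenitor and dividing-cell genes at 91.2, 32.3, 438 and 382. Oligodendrocyte lineage markers summed to 20.6, 5.39, 195 and 190 FPKM (2, 1, 8 and 8 of 8 genes at FPKM of at least 1, Sox10 at 0 with etoposide), and 7 microglial markers to at most 4.51 FPKM. In bulk RNA, fewer cells of a type and less RNA per cell cannot be told apart.

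The members stood at 2 levels, those of the etoposide pair and those of the NMDA pair. Their median was 26.2 FPKM in the etoposide control and 36.1 with etoposide, against 544 in the NMDA control and 541 with NMDA. Summed over the 76 genes, the FPKM were 3411 and 4185 in the etoposide pair and 48656 and 49660.2 in the NMDA pair, a ratio of 1.23 with etoposide, of 1.02 with NMDA and of 14.3 from control to control. As a share of the FPKM of all genes with a transcript over 300 bases, which leaves out small RNAs, the members held 3.0% and 4.58% in the etoposide pair and 8.99% and 8.65% in the NMDA pair. The order of the members was nearly the same within a pair (Spearman rho 0.97 for etoposide and 1.00 for NMDA, over 76 genes) and much less alike between pairs (0.37 to 0.44). These are descriptions across genes that share their libraries. The pairs therefore differed in which ribosomal protein genes were high as well as in their overall level.

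**Figure D1:**
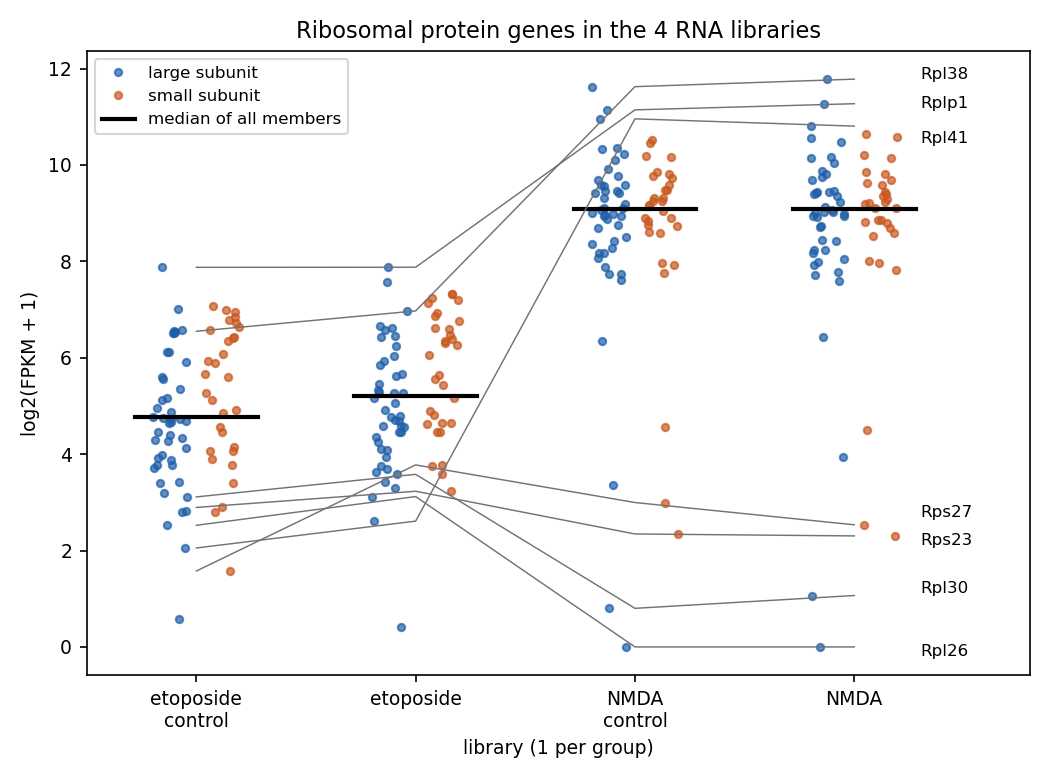
Each point is 1 ribosomal protein gene in 1 library, as log2(FPKM + 1), with large-subunit genes left and small-subunit genes right of each position and the black bar at the median of all 76. The medians are 26.2 and 36.1 FPKM in the etoposide pair and 544 and 541 in the NMDA pair. Members spread widely around them, from 0.486 to 234 FPKM in the etoposide control and from 0 to 3156 in the NMDA control. Grey lines follow 7 named genes, of which Rpl26, Rpl30, Rps23 and Rps27 stay low in all 4 libraries.

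Among the most abundant members, Rplp1, an acidic protein of the stalk that recruits elongation factors, was listed at 234 and 234 FPKM in the etoposide pair (control, then treated) and at 2260.2 and 2469.7 in the NMDA pair. Rpl38, known for its part in the translation of Hox messenger RNAs, was at 92.6, 125, 3156 and 3517 FPKM in the same order. Rplp1 ranked the highest in the etoposide pair and Rpl38 in the NMDA pair. Rps2, which lines the channel by which messenger RNA enters the small subunit, was at 123, 107, 1147 and 1179 FPKM. Rpl39, a very small protein at the mouth of the exit tunnel, was at 40.1, 57.0, 1278 and 1415 FPKM, and Rps21, of the small subunit, at 104, 159, 1160.3 and 1127. The highest member held between 5.6% and 7.08% of the members' summed FPKM in each library, so no gene carried the sum.

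At the low end were Rpl26, Rpl30 and Rps23. Rpl26, which sits beside the tunnel exit, was at 4.75 FPKM in the etoposide control and 7.69 with etoposide, and was listed at 0 in both libraries of the NMDA pair. Rpl30, a protein near the subunit interface, was at 7.65, 10.97, 0.742 and 1.10 FPKM. Rps23, whose loops reach into the decoding centre, was at 6.43, 8.38, 4.08 and 3.94 FPKM. All cells need these proteins, so values at or near 0 beside members far higher are given as listed and not read as absence of the RNA. No member was under 1 FPKM in all 4 libraries.

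With etoposide the ribosomal protein genes were, as a group, slightly higher than in the control, while most other genes were lower. Differences are log2((treated + 1)/(control + 1)), which understates the change of low genes, over genes at FPKM of at least 1 in either library. The median over the 75 members compared was 0.36, against -0.32 over all 10681 genes, a difference of 0.68. By direction alone 69 of the 75 members were higher with etoposide, where 23.3% of all genes were, and all 75 lay above the median of all genes, where 50% of genes lie by construction. At least 2-fold higher were 2 members, Rpl35 and Rps27 (0.477% of all genes), and at least 2-fold lower were 0 (7.36% of all genes). Relative to the median of all genes, 7 members were at least 2-fold higher (1.47% of all genes) and 0 at least 2-fold lower (2.08%). The members also spread less than other genes, with an SD of 0.37 on the log2 scale across members and 0.63 across all genes. The SD of all genes takes in small nucleolar RNAs, whose differences ran from -10.7 to 11.5. Quartiles were 0.15 and 0.49 for members and -0.62 and -0.03 for all genes.

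Of the large subunit, Rpl35 is a protein at the rim of the exit tunnel (mm9 chr2:38853829-38860651, minus strand) and was listed at 13.7 and 49.9 FPKM in the etoposide pair and at 762 and 686 in the NMDA pair. The value with etoposide is above its control and below both libraries of the NMDA pair. It is the 1 member in the authors' deposited table for etoposide, which lists 12 genes as higher and 680 as lower and gives it a ratio of 3.64. From about 177 and 565 fragments, the 95% interval of this ratio is 3.08 to 4.35 (exact conditional binomial, counting error only). Its exons overlap Wdr38 on the other strand. The part of that gene's reads in the value was not tested.

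Among small-subunit genes, Rps27, a zinc-finger protein (chr3:90016589-90017570), was at 1.98, 12.7, 6.98 and 4.79 FPKM in the order etoposide control, etoposide, NMDA control, NMDA. Its log2 difference with etoposide was 2.20, the highest of the members. The value rests on about 9 and 52 fragments, with a ratio of 6.42 and a counting interval of 3.23 to 15.3. Rps27l, a paralogue that p53 is known to induce, was at 19.6 and 28.3 FPKM in the etoposide pair, a log2 difference of 0.51.

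The other members at least 2-fold higher relative to all genes were less than 2-fold above the control with 1 FPKM added. By plain FPKM Rpl9 just reached 2-fold and the rest of them did not. Rps16, whose tail reaches the peptidyl site of the small subunit, was at 13.9 and 26.9 FPKM in the etoposide pair (log2 difference 0.90). Rpl9, near the base of the stalk, was at 5.96 and 11.9 (0.89), and Rps28, beside the path of the leaving messenger RNA, at 5.92 and 10.95 (0.79). Each of these 3 was far higher in the NMDA pair, Rps16 at 243 and 248 FPKM, Rpl9 at 875 and 935 and Rps28 at 1406 and 1530.3. Rps12, of the beak of the small subunit, was at 12.7 and 21.1 FPKM (0.69), and Rpl17, which lines the exit tunnel, at 12.8 and 21.2 (0.69). In the control the 7 members lay between 1.98 and 13.9 FPKM, below the members' median there of 26.2.

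Lower with etoposide than in the control, by direction alone, were 6 members. Rps4x, an X-linked small-subunit protein, was at 98.8 and 82.4 FPKM, a log2 difference of -0.26 and the lowest of the members. Rps2 was at 123 and 107 (-0.19), and Rpl22, which has a paralogue that can replace it, at 25.7 and 22.9 (-0.16). Rpl4, which narrows the exit tunnel, was at 89.8 and 85.3 (-0.07), Rplp0, the base of the stalk, at 90.5 and 86.2 (-0.07) and Rpl23a, a docking site at the tunnel exit, at 18.4 and 18.1 (-0.02). All 6 still lay above the median of all genes, so for them the direction turns with the reference.

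By role, the exit tunnel genes (Rpl4, Rpl17, Rpl19, Rpl23a, Rpl26, Rpl31, Rpl35 and Rpl39) had a median 0.81 above all genes. The proteins that carry 5S ribosomal RNA, Rpl5 and Rpl11, which also bind Mdm2 and so touch p53, were at 12.02 and 16.3 FPKM and at 14.1 and 23.1 FPKM, 0.73 and 0.99 above all genes. The 3 stalk genes had a median of 0.32 above all genes, and Rplp1 and Rplp2 were nearly level (log2 differences 0.00 and 0.04). The 5 genes of messenger entry and decoding (Rps2, Rps3, Rps9, Rps23 and Rps27a) stood at 0.66. Medians were 0.64 over 44 large-subunit and 0.72 over 31 small-subunit genes above all genes, so the subunits lay close together.

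Other members with well-known roles were picked for those roles after the values were seen. Except for Rpl36a, which was nearly level (0.02), they lay inside the members' middle range for etoposide. That range is of log2 differences from 0.15 at the lower quartile to 0.49 at the upper. Rpl3, beside the peptidyl transferase centre, was at 24.1 and 29.1 FPKM in the etoposide pair and at 552 and 534 in the NMDA pair. Rpl10, an X-linked protein that reaches the same centre, was at 20.0, 25.3, 763 and 821 FPKM, and Rpl36a, also X-linked, at 59.2, 60.2, 469 and 494. Rps6, the subunit protein phosphorylated downstream of mTOR, was at 21.1, 24.1, 249 and 254.9 FPKM. Rps19 and Rps26, both mutated in Diamond-Blackfan anaemia, were at 60.1, 80.4, 634 and 604 FPKM and at 80.6, 96.3, 613 and 592. Rps3, at the messenger RNA entry and also a DNA repair enzyme, was at 47.8, 66.0, 215 and 223 FPKM, and Rpsa, known too as a laminin receptor, at 37.7, 49.1, 428 and 464. In all of these genes the etoposide library was above its control by less than 2-fold, and both libraries of the NMDA pair were above both of the etoposide pair.

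Sequences at the annotated transcript start are given for the members with the highest etoposide differences for which RefSeq (GRCm38.p6) has an entry, and for Rplp2, a stalk gene that was nearly level. Each line shows 30 bases, the 16th being the annotated start, and capitals mark the longest run of at least 5 C or T that holds a base within 5 of that start.
Rpl35: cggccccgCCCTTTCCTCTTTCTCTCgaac
Rps27: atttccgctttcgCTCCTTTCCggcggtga
Rpl9: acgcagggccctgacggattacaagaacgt
Rps28: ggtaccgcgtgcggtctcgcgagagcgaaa
Rps12: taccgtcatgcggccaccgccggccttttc
Rplp2: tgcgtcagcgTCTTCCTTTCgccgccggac
Rpl35 has an 18-base tract across its annotated start, at chr2:39005117-39005146 of GRCm38.p6 on the minus strand, Rps27 one of 9 bases and Rplp2 one of 10 bases (chr7:141447636-141447665, plus strand), though Rpl35 was 3.64-fold higher and Rplp2 nearly level. Rpl9, Rps28 and Rps12 show no such tract within 5 bases of the start, which depends on where the start is annotated. The line of Rps12 ends in a run of C and T that lies too far from the start to be marked. Of the 55 members with an entry, 31 (56.4%) had the tract, against 36.7% of 27025 genes. In the 250 bases before to 50 after the start, on either strand, CTTTCC was in 29 members (52.7%; 29.3% of all genes). CCGGAAG, a sequence that ETS-family factors bind, was in 22 members (40%; 9.93% of all genes), and the motifs can share their CC. These letters and the tract rule were chosen after the sequences were seen.

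Related genes place the members' etoposide difference. Proteins of the mitochondrial ribosome had a median 0.43 above all genes (73 of 75 above), oxidative phosphorylation subunits 0.46 (65 of 70) and proteasome subunits 0.31 (30 of 35). Ribosome biogenesis and RNA polymerase I genes lay at 0.32 (36 of 43), with Ubtf, an activator of ribosomal RNA transcription, at 9.18 and 4.94 FPKM and Brix1 at 1.92 and 3.49. The 20 other 5′ TOP messenger RNAs of the translation machinery lay at 0.32 and spread in both directions. Eef2, an elongation factor, was at 136 and 93.1 FPKM and Eif4b at 22.1 and 14.6, while Tpt1 was at 39.5 and 53.5 and Btf3 at 39.5 and 53.7. Their log2 differences ran from -0.57 to 0.44.

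Regulators of ribosomal protein synthesis were below all genes by median (-0.15), and 2 of 23 were higher than in the control. Mtor was at 8.11 FPKM and 4.30 with etoposide, Rptor at 4.30 and 2.13 and Larp1, which binds TOP tracts, at 7.60 and 3.33. Mycl1 was at 8.41 and 3.34, the 1 regulator at least 2-fold lower by the log2 difference with 1 FPKM added (-1.12). By that measure Larp1 stood at -0.99 and Rptor at -0.76, though both were more than 2-fold lower by plain FPKM. Spliced hosts of small nucleolar RNAs, most of them noncoding TOP transcripts, were the list farthest above all genes of those in the plot of list medians (median 1.14, 8 of 8 higher). Among them Snhg1 was at 6.74 and 14.8 FPKM, Snhg8 at 3.52 and 8.97 and Gas5 at 6.45 and 12.3. The fusion genes that give a ribosomal protein and a ubiquitin-like part resembled the members, Fau at 16.2 and 22.9 and Rps27a at 16.6 and 23.6 FPKM. Gnb2l1, which encodes the ribosome-bound scaffold RACK1, was at 75.2 and 90.5 FPKM.

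**Figure D2:**
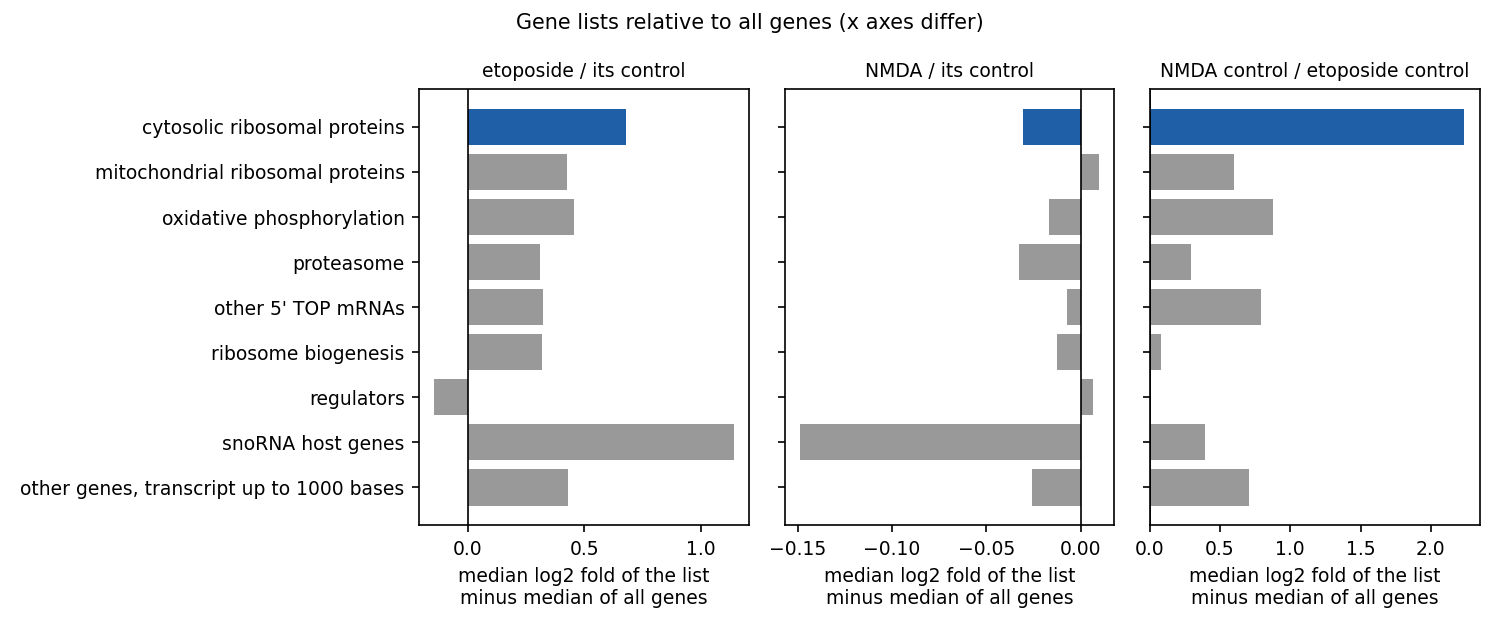
Bars give, for each gene list, the median log2 difference minus that of all genes compared, with a panel for etoposide, NMDA and the 2 controls, whose x axes differ. The members (blue) lie at 0.68, -0.03 and 2.24, and with etoposide the snoRNA host genes lie farther out at 1.14.

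Transcript length went along with the etoposide difference. The members' messenger RNAs had a median of 774 bases, against 2919.5 in other genes, and across 10273 genes the difference fell with length (Spearman rho -0.44), more weakly so among 74 members (-0.18). Non-members with a transcript of at most 1000 bases had a median 0.43 above all genes, and those over 3000 bases -0.17. The members' 0.68 thus lay above that of other short genes, and the part of length in it was not tested. Summed pan-neuronal markers were at 764 FPKM before and 480 after etoposide, in the opposite direction, and the part of cell composition was not tested.

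**Figure D3:**
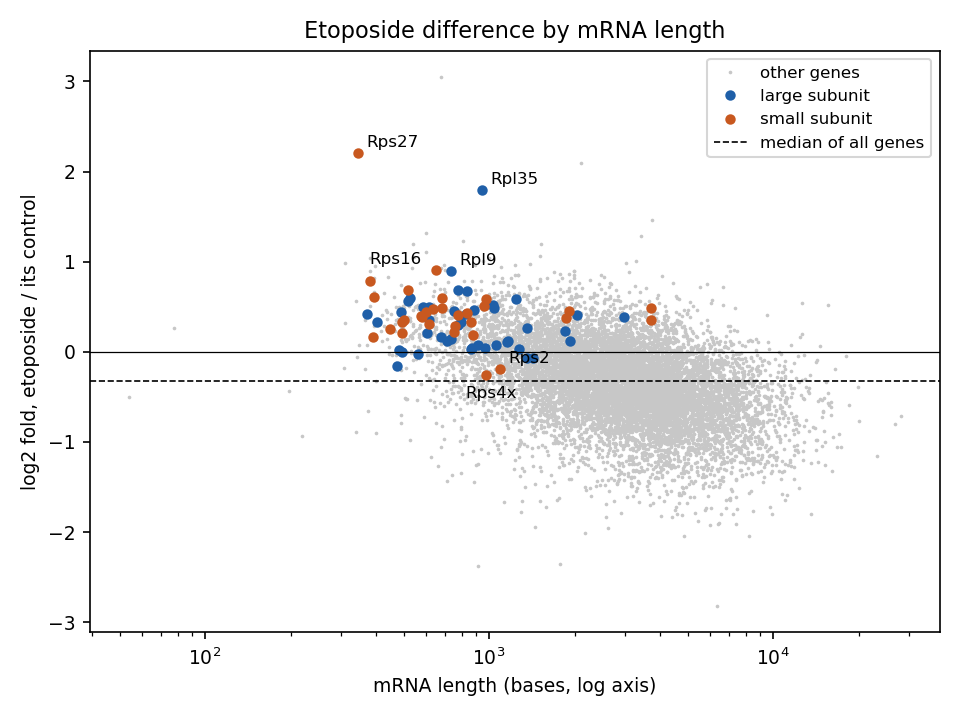
Log2 difference of etoposide against its control by messenger RNA length (log axis), with other genes in grey, large-subunit genes in blue, small-subunit genes in orange and the median of all genes (-0.32) dashed. The members sit at the short end and above the dashed line, with Rps27 (2.20) and Rpl35 (1.79) apart from the rest.

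The etoposide difference depends on its own control. Set against the NMDA control after median scaling, the members' median was -1.33 relative to all genes. Of the 7 members at least 2-fold higher relative to all genes, 1 was left when those with at least 50% of repeated windows (defined with the control comparison) or no matched transcript were left out, and 4 when those under 10 FPKM in any library were.

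With NMDA the ribosomal protein genes were almost level with their control. The median over 75 members compared was -0.0057, against 0.02 over all 13028 genes, and 35 were higher than in the control (57.2% of all genes). None was at least 2-fold higher (0 of 75; 0.438% of all genes) or lower (0; 0.729%), also relative to all genes (0.414% and 0.729%), and 30 lay above the median of all genes (50%). In all, 72 of 75 were within 1.2-fold of the control, and the SD was 0.12 across members and 0.58 across all genes. The quartiles lay closer together, at -0.05 and 0.06 for members and at -0.08 and 0.11 for all genes. At least 50% of all genes were thus within 1.2-fold too. The authors' deposited table for NMDA lists 63 genes, 25 higher and 38 lower, and 0 members.

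Among the members farthest from the control were some of the lowest of this pair. Rpl30 was at 0.742 and 1.10 FPKM (log2 difference 0.27). Rps27 was at 6.98 and 4.79 (-0.46, a ratio of 0.687 with a counting interval of 0.419 to 1.10). For Rps27 and Rpl30 the interval of the ratio includes 1. Among abundant members, higher values came with NMDA for Rpl36 (1309 and 1508 FPKM, 0.20), Rplp2 (754 and 862, 0.19), Rpl38 (0.16) and Rpl39 (0.15). Lower values came for Rpl41, the shortest ribosomal protein (1986 and 1789, -0.15), Rpl35 (762 and 686, -0.15), Rpl14 (287 and 262, -0.13), Rpl31 (328 and 302, -0.12) and Rps15 (851 and 785, -0.12). Rpl35 and Rps27, highest with etoposide, were lower here, without replicates to set a spread beside either.

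Related lists were as close to their control: 0.01 relative to all genes for mitochondrial ribosomal proteins, -0.01 for biogenesis genes, 0.01 for regulators, -0.01 for other TOP messenger RNAs, -0.02 for oxidative phosphorylation and -0.03 for proteasome subunits. Spliced snoRNA hosts lay at -0.15, with Snhg1 at 73.9 and 65.9 FPKM and Gas5 at 21.9 and 18.0. Paralogues, fusion genes and Gnb2l1 lay at -0.05. By role, the stalk stood at 0.10 and the exit tunnel at -0.09.

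Between the controls the difference of the ribosomal protein genes was far larger than with either treatment. The median over 76 members was 3.56 on the log2 scale, NMDA control over etoposide control, against 1.32 over all 12987 genes, which leaves 2.24. At least 2-fold higher in the NMDA control were 73 members, a count to be read against 75.1% of all genes, and at least 2-fold lower were 2, Rpl26 and Rpl30 (0.708%). Relative to all genes, 66 were at least 2-fold higher (8.02% of all genes) and 3 at least 2-fold lower (2.96%), the third being Rps23. By direction alone 73 were higher (98.4% of all genes), and 72 lay above the median of all genes (50%). The SD was 1.83 across members and 0.94 across all genes, the reverse of the order seen within the pairs. Culture, library and sequencing run cannot be told apart between these controls. Glial and progenitor markers were also higher in the NMDA control, the 8 astrocyte genes by a median of 1.39 relative to all genes, the 8 of the oligodendrocyte lineage by 1.13 and the 9 of progenitors and dividing cells by 1.09. Pan-neuronal markers stood at 0.06 (764 FPKM summed in the etoposide control, 2263 in the NMDA control and 2405 with NMDA), excitatory markers at -0.54 and inhibitory markers at -0.33. The part of cell composition in the members' difference was not tested.

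The highest differences belonged to genes low in the etoposide pair. Rpl41 was at 3.15 and 5.11 FPKM in the etoposide pair and at 1986 and 1789 in the NMDA pair (log2 difference between the controls 8.90). Rps28 followed with 7.67, Rpl9 with 6.98 and Rps12 with 6.73 (12.7, 21.1, 1457 and 1589.8 FPKM). Rpl23a was at 18.4, 18.1, 1205 and 1142 FPKM (5.96), and Rpl36, of the large subunit, at 21.0, 26.7, 1309 and 1508 (5.89). In each of these 6 genes the 2 libraries of a pair lay together and no library of the other pair came near. The genes that matched the rest of the transcriptome more closely were Rps15a, at 9.60, 12.6, 22.5 and 21.5 FPKM (1.15), Rps27 (1.42) and Rpl22, at 25.7, 22.9, 80.3 and 85.1 (1.61).

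Rps23 was slightly lower in the NMDA control (-0.55), and Rpl30 10.3-fold lower by FPKM, from about 93 and 13 fragments. Rpl26 is counted as lower through the pseudocount, with no fold, since it is listed at 0 in the NMDA pair. By role, the exit tunnel genes stood 4.06 above all genes by median and the messenger entry and decoding genes 0.95. The stalk stood at 1.66, and the 5S ribosomal RNA binders at 3.38. Large-subunit genes stood at 2.87 and small-subunit genes at 2.07, a wider gap than in either treatment.

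**Figure D4:**
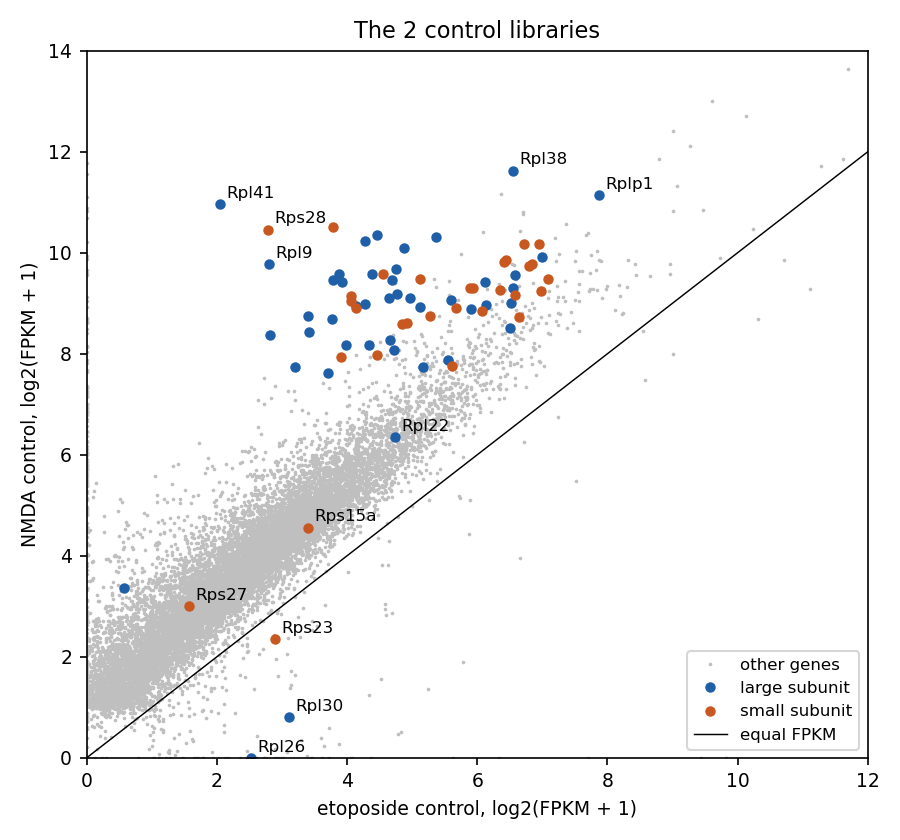
Each point is a gene, with log2(FPKM + 1) in the etoposide control on the x axis and in the NMDA control on the y axis, other genes in grey (those that reached 1 FPKM in some library) and the line at equal FPKM (7 genes lie outside the axes). Most members form a cloud above the band of other genes, whose median difference is 1.32, while Rpl22, Rps15a and Rps27 lie in or near the band and Rps23, Rpl30 and Rpl26 below the line.

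Members differ from other genes in how much of their sequence is repeated in the genome. Of the 50-base windows of each annotated messenger RNA (GENCODE vM1, mm9), the share also found exactly elsewhere in mm9 had a median of 62.3% over the 75 members with a transcript. It ranged from 0% to 99.7% (Rps27). At least 50% of windows were repeated in 46 members (61.3%), against 2.84% of 12306 other genes, whose median is 0%. Rpl41 had no annotated transcript matched and stays out of these counts.

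Coding stretches of 60 bases show this for 4 members at the extremes of the comparisons, with capitals marking the 50-base window of the coding sequence that has the most exact copies elsewhere in mm9.
Rps12: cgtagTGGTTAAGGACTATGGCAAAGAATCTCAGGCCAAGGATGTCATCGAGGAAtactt
Rpl9: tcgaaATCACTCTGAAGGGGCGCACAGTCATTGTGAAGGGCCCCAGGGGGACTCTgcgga
Rps28: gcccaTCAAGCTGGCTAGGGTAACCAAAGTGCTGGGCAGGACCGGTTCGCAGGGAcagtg
Rps27: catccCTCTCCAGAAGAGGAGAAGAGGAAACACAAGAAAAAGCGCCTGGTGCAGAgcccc
The Rps12 window has 21 copies elsewhere, 16 of them within annotated pseudogenes, that of Rpl9 has 8, that of Rps28 6 and that of Rps27 5. In Rps12 and Rps28 the window spans an exon junction, and so the genome holds 0 copies of it within the gene's own locus. The 50 bases of a capital stretch match each of their copies exactly. In Rps12 and Rps28 they match the gene's own locus only when split at the junction. Whether a longer read or its mate tells the places apart was not tested. The sources used here do not say how reads with several placements were counted.

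Among members, repeated sequence went along with the difference between the controls, and hardly with that of etoposide. Across 75 members the Spearman rho of the between-control difference with the share of repeated windows was 0.46 (0.53 with 100-base windows), and across 12295 genes 0.01 (0.05). For the etoposide difference it was 0.05 over 74 members (0.06 with 100-base windows), and 0.13 (0.14) across 10273 genes. Non-members with at least 50% of repeated windows had a median etoposide difference of 0.28 relative to all genes, and those with none -0.04. The 7 members with under 25% of repeated windows had a median between-control difference of 2.59, the 22 with 25% to 50% one of 3.36, the 14 with 50% to 75% one of 3.39, the 20 with 75% to 90% one of 4.79 and the 12 above 90% one of 4.95. Other genes in the same classes lay at 1.31, 1.53, 1.59, 1.94 and 1.91. So members with little repeated sequence also stood above the genes of their class, though by less. The level itself moved in the etoposide control, from a median of 89.8 FPKM in the lowest class to 20.5 in the highest, while in the NMDA control these were 574 and 819. Without the members with at least 50% of repeated windows or no transcript, the median between the controls was 2.93 over those left (1.60 relative to all genes). The part of read placement in the difference was not tested.

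**Figure D5:**
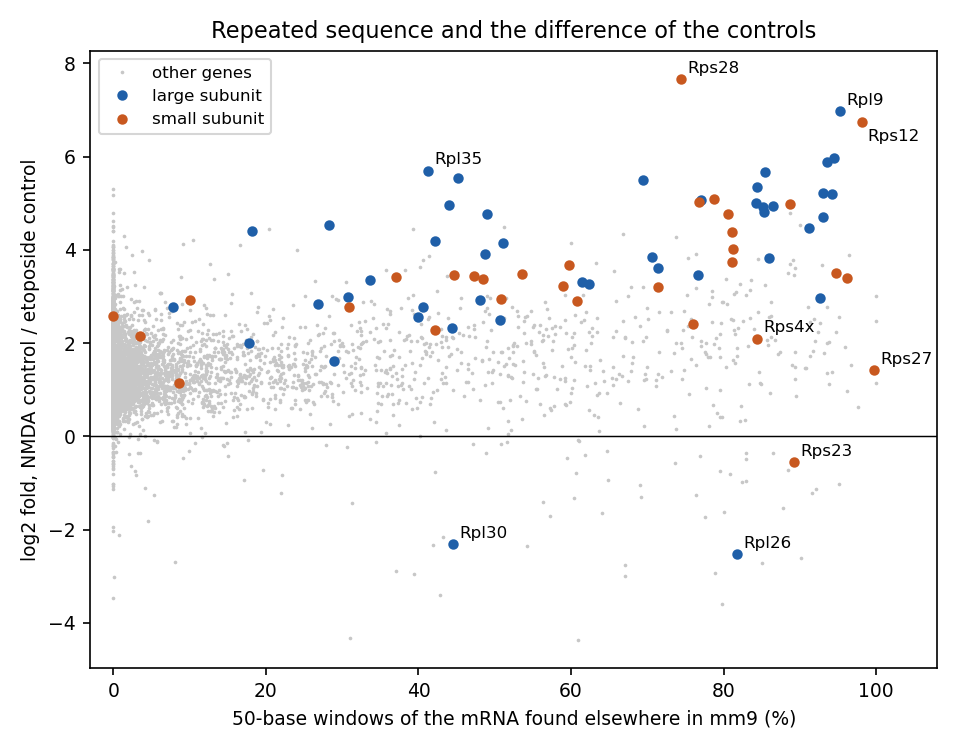
Log2 difference between the controls (NMDA control over etoposide control) by the percent of a messenger RNA's 50-base windows found elsewhere in mm9, with large-subunit genes in blue, small-subunit genes in orange and other genes in grey. Members rise from a class median of 2.59 at the left to 4.95 at the right, with Rpl30, Rps23 and Rpl26 below 0 and other genes near 1.31 to 1.94 by class median.

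Among the small nucleolar RNAs inside members that were above 0 in all 4 libraries, most differed less between the controls than their hosts. Within 23 members the tables list 34 small RNAs, of which 18 were above 0 in all 4 libraries. Their median ratio of NMDA control to etoposide control was 2.32, and that of their hosts 11.4. In 15 of the 18 the ratio was below the host's. Snord100, in an intron of Rps12, was at 381 and 865 FPKM in the etoposide pair and 178 and 276 in the NMDA pair, against 12.7, 21.1, 1457 and 1589.8 in its host. Snord83b, in Rpl3, was at 2214, 1379, 619 and 936 FPKM and its host at 24.1, 29.1, 552 and 534. FPKM of RNAs this short rest on few fragments, and 13 were at 0 in both libraries of the etoposide pair. Those at 0 in the etoposide control have no ratio and are left out of these counts. Some of them were high in the NMDA control, such as Snord68 at 1811 FPKM, while 4 were at 0 in both libraries of the NMDA pair.

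Related genes between the controls lay closer to the rest of the transcriptome. Relative to all genes, the medians were 0.60 for mitochondrial ribosomal proteins (64 of 75 above), 0.88 for oxidative phosphorylation subunits, 0.30 for proteasome subunits and 0.08 for ribosome biogenesis genes. Regulators stood at 0.00, spliced snoRNA hosts at 0.39, and other short genes, with a transcript of at most 1000 bases, at 0.70. The 20 other TOP messenger RNAs stood at 0.79, with Tpt1 at 39.5 and 714 FPKM in the 2 controls and Naca at 24.4 and 270.03. Fbl, the methyltransferase of small nucleolar ribonucleoproteins, was at 1.50 and 34.1, and Eef1a1, a TOP elongation factor, at 536 and 2566, while its non-TOP neuronal counterpart Eef1a2 was at 50.2 and 198. The fusion gene Fau was at 16.2 and 476 FPKM, a log2 difference of 4.79, above the members' median. Non-members with at least 50% of repeated windows stood at 0.44, below the members of the same kind.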

How the data were processed

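Total RNA of 4 cultures, 1 per group, was made into libraries read from both ends, per the labels' protocols. FPKM were made by the authors and used as deposited. Per the submitters' processing notes the build was mm9 and the tools of the series included Cuffdiff, Cufflinks 2.0.0, Bowtie and TopHat, without stated roles. How reads with several placements were counted, and whether strand was used, was not given in the sources used, so overlapping genes and near-identical copies are uncertain.

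Treated libraries were set against the control of their own deposited pair, as log2((FPKM + 1)/(FPKM + 1)) for genes at FPKM of at least 1 in either library. The size rule was 2-fold, as deposited and relative to the median of all genes. With 1 library a group no test was run. The members and gene lists were chosen with earlier results of these data known. Named members are the 10 highest and 5 lowest by mean FPKM, the 6 largest and 6 smallest log2 differences of each comparison, members in an authors' table, and up to 4 genes of each related list. Some genes taken by this rule are not reported here but stay in counts and medians. Other genes named, among them the role groups, were chosen after their values were seen. Fragment numbers come from the FPKM steps of single-exon genes and are approximate, and intervals cover counting error only. Transcripts came from GENCODE vM1, matched for 75 members. Steps used Python 3.11.15, numpy 2.4.6, pandas 2.3.3, scipy 1.17.1 and numba 0.67.0, and were tested on simulated data. Other scalings, pseudocounts, filters and member sets were tried.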

Additional observations from a re-analysis of the deposited data

How the results depend on the processing

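No paired analysis was possible because each group has 1 library. Without replicates, no setting measures the spread between cultures, and members under about 10 FPKM rest on few fragments. Leaving out members with at least 50% of repeated windows or no transcript, and leaving out those under 10 FPKM in any library, were chosen after seeing the data. The cause of each shift below was not tested.

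For etoposide the members' median as deposited (0.36) was 0.78 with median scaling, 0.79 with upper-quartile scaling, 0.69 when rescaled without small RNAs and -1.35 against the other control. Relative to all genes (0.68) it was 0.79 with a pseudocount of 0.1, 0.47 with no filter, 0.78 with a minimum of 5 FPKM, 0.76 with median scaling, 0.76 with upper-quartile scaling, 0.75 when rescaled and -1.33 against the other control. The 2 members at least 2-fold changed became 11 with median scaling, 13 with upper-quartile scaling, 8 when rescaled and 52 against the other control. Of the 52, 5 were higher and 47 lower. The share of all genes at least 2-fold higher, 0.477% as reported, moved too. It was 1.83% with median scaling, 1.97% with upper-quartile scaling, 5.58% when rescaled and 6.62% against the other control. The last share goes with the 5 members higher there, and no share of all genes is given here for the 47 lower. The 2 members became 1 without members overlapping another gene's exons, without the repeated members or without the low ones. The 7 higher relative to all genes became 14 with a pseudocount of 0.1, 4 with no filter and 12 with a minimum of 5 FPKM. The share of all genes, 1.47% as reported, was 3.74%, 0.434% and 2.83% in that order. Without the repeated members 1 of 28 was left, and without the low members 4 of 63. The 0 lower relative to all genes became 46 against the other control. No share of all genes is given here for that count either, so it is not read as particular to the members.

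For NMDA the median (-0.0057) was -0.033 with median scaling, -0.024 with upper-quartile scaling, -0.091 when rescaled, 0.012 without the repeated members and 1.94 against the other control (1.93 relative to all genes). There 64 members were at least 2-fold changed, 61 higher and 3 lower relative to all genes, where the pair's own control gave 0. Of all genes, 6.64% were at least 2-fold higher relative to their median there, and 0.414% against the pair's own control.

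Between the controls the median (3.56) was 1.97 with median scaling, 1.90 with upper-quartile scaling, 1.44 when rescaled and 2.93 without the repeated members. Relative to all genes (2.24) it was 1.96, 1.95, 2.01 and 1.60 in that order. The 75 members changed became 49 without overlapping members and 29 without the repeated ones, and the 66 higher relative to all genes 42 and 23, out of fewer members. Of all genes, 75.1% were at least 2-fold higher and 0.708% lower, and relative to their median 8.02% higher and 2.96% lower. The 3 lower became 1 without the repeated and 0 without the low members.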
